A study of Mus musculus with 9 samples.

Results

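Chemokines are small secreted proteins that direct the migration of leukocytes through G protein-coupled receptors, and the gut lining makes several of them without infection or injury. The set described here holds 10 chemokine genes of the colonic mucosa, Cxcl1, Cxcl9, Cxcl10, Cxcl16, Ccl5, Ccl6, Ccl20, Ccl25, Ccl28 and Cx3cl1. They were matched by gene symbol, and each matched 1 of the 54146 genes listed. RNA-seq of colonic mucosa compared 5 ApcMin/+ mice (2 females and 3 males) with 4 ApcMin/+; p16cis/cis mice (3 females and 1 male), all C57BL/6J and 15 wk old. Both genotypes carried the heterozygous germline Apc mutation of the ApcMin allele, which gives rise to intestinal adenomas. The ApcMin/+; p16cis/cis mice were also homozygous for a knocked-in cis-element that promotes DNA methylation of the p16 promoter. Both alleles are germline alleles and so are not limited to the colon, and no mice without the ApcMin allele were among the 9. The methods describe the RNA as coming from colonic crypts, and the labels call the tissue colonic mucosa.

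The members differ in their receptors and in the cells known to make them. Ccl25, Ccl28, Cx3cl1 and Cxcl16 are classed as homeostatic or constitutive products of the epithelium in many barrier tissues. Ccl25 binds Ccr9 and is best known from the small intestine, Ccl28 binds Ccr10 and Ccr3 and attracts IgA-producing plasma cells to mucosal surfaces, and Cx3cl1 and Cxcl16 are membrane-anchored ligands of Cx3cr1 and Cxcr6 that proteases can shed. Ccl6 is a rodent CC chemokine that signals through Ccr1. Cxcl9 and Cxcl10 are interferon-inducible ligands of Cxcr3, Ccl5 is made by cytotoxic T and NK cells among others and binds Ccr1 and Ccr3 among its receptors, Cxcl1 attracts neutrophils through Cxcr2, and Ccl20 is the ligand of Ccr6.

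In the GENCODE M21 annotation of GRCm38 all 10 are protein-coding genes. Ccl5 (chr11:83525778-83530518) and Ccl6 (chr11:83587882-83593087) lie near each other on the minus strand of chromosome 11, which also holds Cxcl16 (chr11:70453983-70459984). Cxcl1 (chr5:90891241-90893115), Cxcl9 (chr5:92321347-92328079) and Cxcl10 (chr5:92346638-92348889) are on chromosome 5. Ccl25 (chr8:4325210-4360020) and Cx3cl1 (chr8:94772009-94782427) are on chromosome 8, Ccl20 (chr1:83116766-83119167) is on chromosome 1 and Ccl28 (chr13:119623819-119654359) on chromosome 13.

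The sequences upstream of the start sites are shown for the 4 inducible members with the widest or lowest values, and for Ccl28, the member with the smallest spread. Promoter windows from RefSeq (GRCm38.p6) were matched for 8 of the 10 members by symbol, and the 250 bases before the start were kept. The windows were searched on both strands for a TATA box (TATAAA), an interferon-stimulated response element (GAAANNGAAA), a gamma-activated site (TTCNNNGAA), an AP-1 site (TGANTCA) and the NF-kB consensus. Each line is written 5′ to 3′ in the direction of transcription, with every match in capitals.
Cxcl9, chr5:92328080-92328329, minus strand: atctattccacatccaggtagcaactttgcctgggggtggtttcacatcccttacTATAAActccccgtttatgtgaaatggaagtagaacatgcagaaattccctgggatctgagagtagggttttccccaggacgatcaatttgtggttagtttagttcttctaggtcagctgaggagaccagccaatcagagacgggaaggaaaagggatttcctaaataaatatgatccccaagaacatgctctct
Cxcl10, chr5:92348890-92349139, minus strand: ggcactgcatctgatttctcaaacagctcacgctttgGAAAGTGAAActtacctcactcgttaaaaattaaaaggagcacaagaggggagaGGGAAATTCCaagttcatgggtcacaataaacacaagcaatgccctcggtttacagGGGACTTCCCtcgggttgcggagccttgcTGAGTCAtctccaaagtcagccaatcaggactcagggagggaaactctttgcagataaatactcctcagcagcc
Cxcl1, chr5:90890995-90891244, plus strand: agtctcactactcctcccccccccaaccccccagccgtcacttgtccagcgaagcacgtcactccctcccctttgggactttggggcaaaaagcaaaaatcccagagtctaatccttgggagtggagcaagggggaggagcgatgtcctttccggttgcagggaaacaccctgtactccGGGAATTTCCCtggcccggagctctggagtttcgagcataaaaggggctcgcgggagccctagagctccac
Ccl20, chr1:83116516-83116765, plus strand: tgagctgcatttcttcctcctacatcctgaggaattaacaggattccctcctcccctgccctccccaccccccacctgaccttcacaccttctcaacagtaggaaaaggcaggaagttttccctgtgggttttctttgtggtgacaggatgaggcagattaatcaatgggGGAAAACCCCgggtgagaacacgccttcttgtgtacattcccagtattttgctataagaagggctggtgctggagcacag
Ccl28, chr13:119623569-119623818, plus strand: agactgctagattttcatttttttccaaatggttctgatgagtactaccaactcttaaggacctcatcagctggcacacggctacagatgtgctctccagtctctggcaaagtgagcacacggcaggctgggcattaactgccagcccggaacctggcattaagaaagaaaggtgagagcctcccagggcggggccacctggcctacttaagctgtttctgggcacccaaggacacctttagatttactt
In the Cxcl10 window the response element lay 213 to 204 bases before the start, the NF-kB matches 159 to 150 and 103 to 94 bases before it, and the AP-1 match, which reads the same way on both strands, 74 to 68 bases before it. The Cxcl1 window held an NF-kB match on each strand, at 71 to 62 and 70 to 61 bases, so that both overlap. The Ccl20 window held 1, at 80 to 71 bases. The capitals in the Cxcl9 window mark TATAAA letters 195 to 190 bases before the start. The Ccl28 window held none of the 5 motifs, and neither did that of Ccl6. Of 32851 mouse promoter windows of the same length, 3.90% held the NF-kB consensus, 2.98% the response element, 7.02% the gamma-activated site, 6.75% the AP-1 site and 12.4% the TATA letters. A match is a run of letters and not a measured binding site.

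The libraries held 15745098 to 17885918 reads on genes in ApcMin/+ mice and 13523500 to 14900228 in ApcMin/+; p16cis/cis mice. Values are normalized counts, which are reads divided by a size factor of the mouse, so that 3 reads, the floor used here, stood for 2.85 to 4.79 normalized counts depending on the mouse. Mitochondrial genes took 12.0% ± 2.87 of reads in ApcMin/+ mice (SD, n = 5). In ApcMin/+; p16cis/cis mice they took 24.2% ± 4.41 (SD, n = 4). The ranges were 8.74% to 15.6% and 19.3% to 29.8%, so the share and the genotype cannot be told apart. Markers of colonic epithelium were high in each of the 9 mice, with Epcam at 24444 to 38616 and Muc2 at 103949 to 187680 normalized counts. ApcMin/+ replicate 4 stood apart. Its 14 T and NK cell markers summed to 100.4 normalized counts, against 787 to 1476 in the other ApcMin/+ mice, and its 10 colonic epithelium markers to 540830, against 324214 to 347699. Results that rest on this mouse are therefore given with and without it.

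Per kb of the principal transcript, the 10 members spanned from a mean of 5585 normalized counts per kb for Ccl6 to 5.92 for Cxcl1 (n = 9). Ccl6, at 5585 ± 1247 per kb (SD), was above Ccl28 (1107 ± 135) in 9 of 9 mice, and Ccl28 was above Cx3cl1 (808 ± 130) in 8 of 9. Ccl5 followed at 414 ± 174 per kb, Ccl25 at 161 ± 37.9, Ccl20 at 108 ± 178, Cxcl16 at 21.9 ± 7.05, Cxcl10 at 17.9 ± 17.9 and Cxcl9 at 8.25 ± 5.70. The first 3 neighboring pairs in this order, from Ccl6 to Ccl5, and the pair Ccl25 and Ccl20 differed beyond the spread between mice (exact sign-flip permutation test, two-sided, adjusted p of 0.0176, 0.0352, 0.0176 and 0.0439 over 9 pairs, where 0.00391 is the smallest unadjusted p). The other neighbors, Ccl5 and Ccl25 (adjusted p = 0.0563, exact test), Ccl20 and Cxcl16 (0.231), Cxcl16 and Cxcl10 (0.188), Cxcl10 and Cxcl9 (0.777) and Cxcl9 and Cxcl1 (0.233), did not pass. With the length of all annotated exons in place of the principal transcript, Ccl20 stood above Ccl25 in mean level, and that pair no longer passed (adjusted p = 0.859, exact test). On that length Ccl25 stood at 22.9 per kb, and Ccl5 and Ccl25 (adjusted p = 0.0117), Cxcl16 and Cxcl10 (0.0176) and Cxcl9 and Cxcl1 (0.0352) passed the exact test, so the order below Ccl5 depended on the length used.

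Among 39 chemokine ligands summed per kb, the 10 members together took 93.8% to 96.0% of the total in each mouse. Ccl6, Ccl28 and Cx3cl1 alone took 83.1% to 91.8%. The chemokine messages of this mucosa were thus mostly those of 3 genes, in both genotypes.

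**Figure D1:**
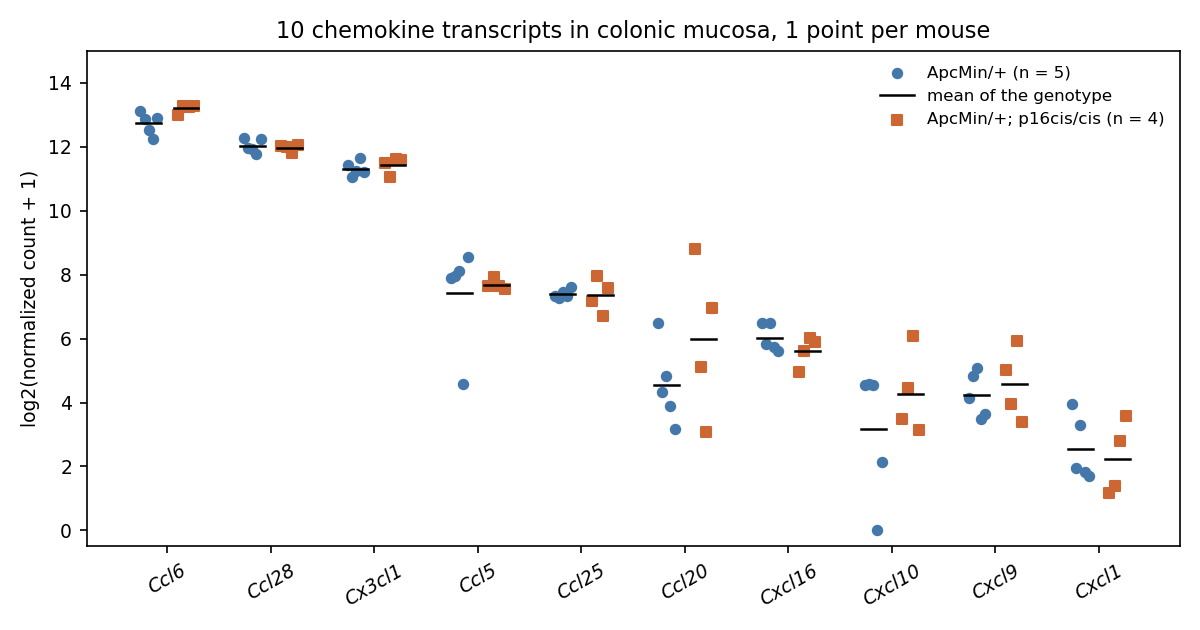
Level of the 10 members as log2(normalized count + 1) in each mouse, with ApcMin/+ as circles, ApcMin/+; p16cis/cis as squares and a bar at the mean of each genotype, in the order of level per kb. Ccl6, Ccl28 and Cx3cl1 are high in every mouse, the points of Ccl20 and Cxcl10 are widely spread, and the genotypes overlap for all 10 genes.

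No member passed the test between the genotypes. Of the 10 members, 9 reached 10 or more normalized counts in 4 or more mice and were tested with limma, and 0 of the 9 had a Benjamini-Hochberg adjusted p under 0.05, while 1 (Ccl6) had an unadjusted p under 0.05. The count tests of edgeR and DESeq2 on the recovered reads also gave 0. Over all 14410 genes tested, 16.9% passed at an adjusted p under 0.05 and 3.48% also changed by over 2-fold. The values of the 2 genotypes overlapped for all 10 members, whereas 16.2% of all genes tested did not overlap. The median log2 fold change of the 9 members was 0.27, beside -0.0041 over all genes tested. A p that misses the threshold does not show that the levels were equal, and the intervals below give the range of differences that these 9 mice allow.

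Ccl6 was the most abundant member and the one nearest to the threshold. It was at 8954, 7513, 5859, 4811 and 7644 normalized counts in the ApcMin/+ mice and at 8224, 9797, 9589 and 9993 in the ApcMin/+; p16cis/cis mice. The lowest ApcMin/+; p16cis/cis mouse lay below the highest ApcMin/+ mouse, and the 3 others lay above all ApcMin/+ mice. The log2 fold change was 0.46 (95% confidence interval 0.10 to 0.83), or 1.38-fold higher, with an adjusted p of 0.0761 from limma. Exact permutation of the 9 mice gave p = 0.0397 (two-sided, smallest possible 0.00794), and exact permutation within sex gave p = 0.05. Without ApcMin/+ replicate 1, the highest of its genotype, the log2 fold change was 0.56 with an adjusted p of 0.0427, and in females alone it was 0.24 (adjusted p = 0.346). With the mitochondrial share as a covariate it was -0.05 (adjusted p = 0.983). Ccl6 is also made by myeloid cells. The 13 myeloid markers summed to 1136 to 2036 normalized counts in ApcMin/+ and 1602 to 1642 in ApcMin/+; p16cis/cis mice, and without Cd14, which dominates the sum, to 165 to 422 and 206 to 260. The part of these cells in the Ccl6 level was not tested.

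Ccl28 was among the steadiest messages of the set. It was at 4940, 3955, 3876, 3479 and 4876 normalized counts in ApcMin/+ and at 4167, 4074, 3599 and 4283 in ApcMin/+; p16cis/cis mice. All 4 of the latter lay inside the ApcMin/+ range, and the highest mouse of the 9 was 1.42-fold above the lowest. The log2 fold change was -0.06 (95% confidence interval -0.32 to 0.21, adjusted p = 0.781), so that a change of 2-fold in either direction lay outside the interval. The SD within genotypes was 0.18 on the log2 scale, against a median of 0.26 over all genes tested.

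The ratio of these 2 abundant members, which does not depend on the size factor of the mouse, did not overlap between the genotypes. There were 1.81, 1.90, 1.51, 1.38 and 1.57 reads of Ccl6 per read of Ccl28 in the ApcMin/+ mice and 1.97, 2.40, 2.66 and 2.33 in the ApcMin/+; p16cis/cis mice. The means were 1.63 ± 0.215 (SD, n = 5) and 2.34 ± 0.285 (SD, n = 4), a ratio 1.44-fold higher in the latter. It was the only 1 of the 36 pairs of tested members without overlap in the log2 ratio, or 2.78% of them, where 14.6% of all pairs of tested genes did not overlap, so the share among members was below the background. Since it was singled out after the values were seen, the ratio is given as a description without a test. Leaving out each mouse in turn kept the log2 difference in the ratio between 0.46 and 0.60, and in females it was 0.55. The share of Ccl28 among the summed ligands was accordingly 14.6% ± 1.19 (SD, n = 5) in ApcMin/+ and 11.1% ± 0.931 in the ApcMin/+; p16cis/cis genotype (SD, n = 4).

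**Figure D2:**
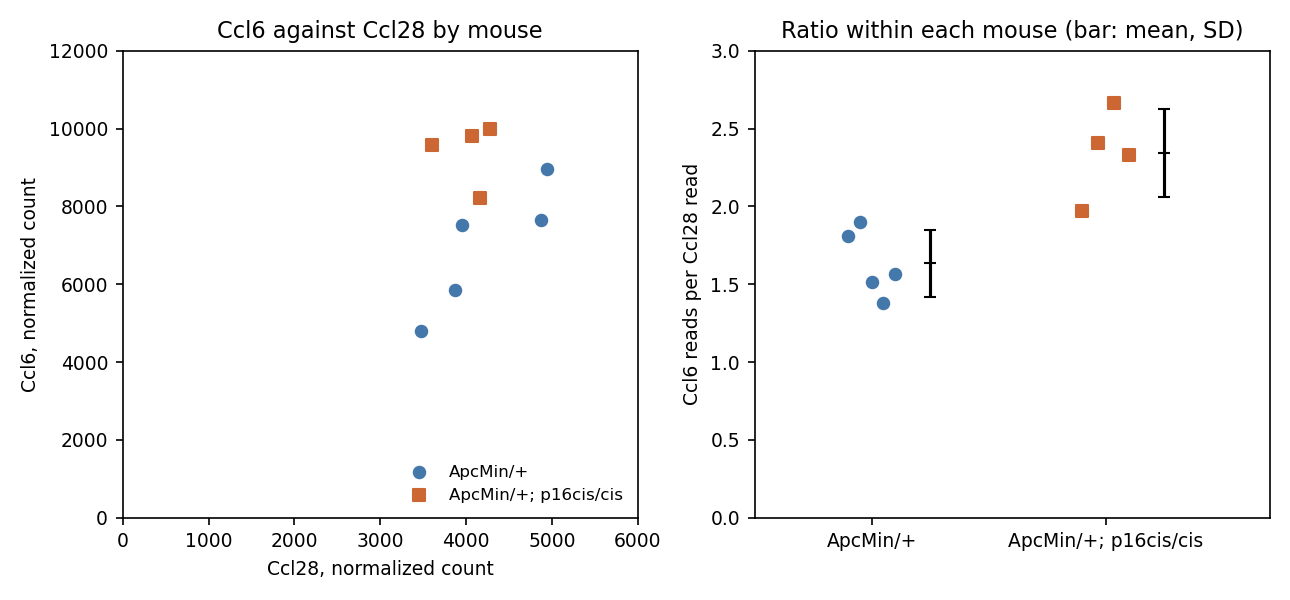
Left, Ccl6 against Ccl28 in normalized counts, 1 point per mouse. Right, reads of Ccl6 per read of Ccl28 in each mouse with the mean and SD of each genotype, where the ApcMin/+ mice (circles) lie between 1.38 and 1.90 and the ApcMin/+; p16cis/cis mice (squares) between 1.97 and 2.66.

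Cx3cl1, the membrane-anchored ligand of Cx3cr1, was at 2779, 2117, 2433, 3193 and 2341 normalized counts in ApcMin/+ and at 2869, 2141, 3169 and 3064 in ApcMin/+; p16cis/cis mice. All 4 of the latter lay within the ApcMin/+ range. The log2 fold change was 0.13 (95% confidence interval -0.19 to 0.44, adjusted p = 0.584). Ccl25 was nearly even among ApcMin/+ mice, at 161, 152, 175, 161 and 196 normalized counts, and more scattered among ApcMin/+; p16cis/cis mice, at 144, 249, 104 and 190. Both the lowest and the highest Ccl25 value belonged to the latter genotype, and the log2 fold change was -0.05 (95% confidence interval -0.54 to 0.44, adjusted p = 0.910). Ccl25 overlaps the more abundant Elavl1 on the opposite strand (1476 normalized counts on average), and the strand setting of the libraries is not given in the sources used here, so its reads may in part be those of Elavl1. Intervals of Ccl6, Ccl25, Ccl28 and Cx3cl1 all lay within 1 on the log2 scale.

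Cxcl16, the ligand of Cxcr6, was at 89.3, 56.1, 87.8, 52.1 and 47.7 normalized counts in ApcMin/+ and at 30.3, 47.9, 63.1 and 58.0 in ApcMin/+; p16cis/cis mice. The 2 highest values were from ApcMin/+ mice and the 3 lowest included 2 from ApcMin/+; p16cis/cis mice, with overlap between. The log2 fold change was -0.41 (95% confidence interval -1.04 to 0.21, adjusted p = 0.349). The proteases Adam10 and Adam17, which shed Cxcl16 and Cx3cl1 from the membrane, and Dpp4, which trims Cxcl10 and Ccl5 among others, were tested as a list of processing enzymes. With all 9 mice none of these 3 passed the limma test, and 0 of 3 had an unadjusted p under 0.05. Adam10 ranged from 1776 to 2764 normalized counts (adjusted p = 0.151), Adam17 from 449 to 709 (0.313) and Dpp4 from 945 to 1412 (0.551). Without ApcMin/+ replicate 4, Adam17 passed as lower in ApcMin/+; p16cis/cis mice (log2 fold change -0.34, adjusted p = 0.0302), as did 1797 of all 14410 genes tested.

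Cxcl9 and Cxcl10, the interferon-inducible pair, were low, at 9.40 to 60.1 and 0 to 66.1 normalized counts. Cxcl9 was at 16.7, 27.6, 33.2, 10.2 and 11.4 normalized counts in ApcMin/+ and at 31.6, 14.4, 60.1 and 9.40 in ApcMin/+; p16cis/cis mice. Cxcl10 was at 22.3, 22.8, 22.4, 0 and 3.40 in the former and at 10.1, 20.7, 66.1 and 7.83 in the latter. The highest value of both genes was in ApcMin/+; p16cis/cis replicate 3, and ApcMin/+ replicate 4 had no read of Cxcl10, where the floor of 3 reads was 3.81 normalized counts. The log2 fold change of Cxcl9 was 0.33 (95% confidence interval -0.84 to 1.50, adjusted p = 0.706), and that of Cxcl10 was 1.12 (-0.97 to 3.21, adjusted p = 0.453). Without ApcMin/+; p16cis/cis replicate 3 they were -0.12 and 0.52, and without ApcMin/+ replicate 4 they were 0.14 and 0.33. Cxcl9 had 6 to 40 reads and Cxcl10 0 to 44 reads a library, and both intervals held values on either side of 0, a 2-fold rise among them. The SDs within genotypes were 0.92 for Cxcl9 and 1.77 for Cxcl10 on the log2 scale, against a median of 0.26 over all genes tested.

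After subtraction of the genotype means, Cxcl9 and Cxcl10 had a Pearson r of 0.72 and a Spearman rho of 0.88 over the 9 mice. The permutation p within genotypes was 0.0240 for r and 0.00556 for rho (adjusted p of 0.431 and 0.138 over 36 pairs of members), and r was 0.65 without the 2 mice farthest from the median. None of the 36 pairs passed the adjustment. Ccl6 and Ccl28 had an r of 0.76 and a rho of 0.80 (permutation p of 0.0726 and 0.0493, adjusted 0.546 and 0.592), but r fell to 0.36 without the 2 farthest mice, so that relation rests on them. Ifng, which induces Cxcl9 and Cxcl10, had 0 to 4 reads a library.

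**Figure D3:**
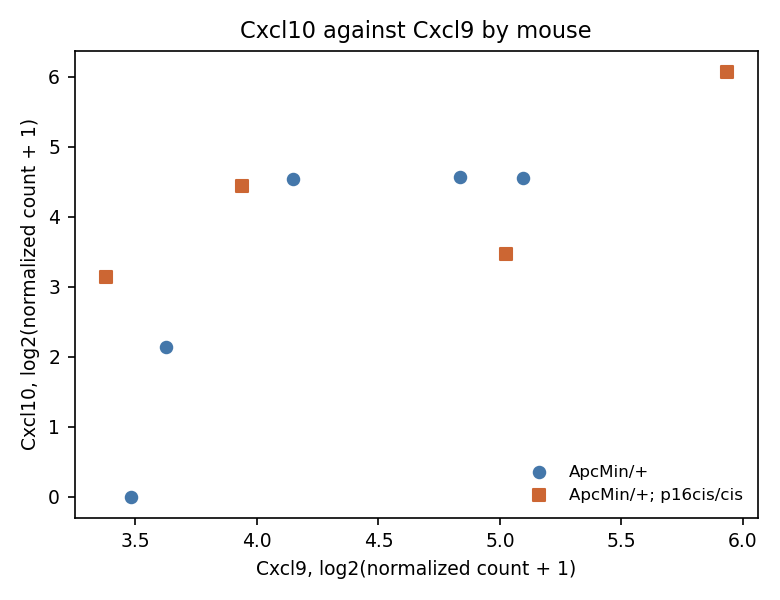
Cxcl10 against Cxcl9, each as log2(normalized count + 1), 1 point per mouse, with ApcMin/+ as circles and ApcMin/+; p16cis/cis as squares. The highest point is ApcMin/+; p16cis/cis replicate 3 and the lowest is ApcMin/+ replicate 4, which had no read of Cxcl10.

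Ccl5 depended on 1 mouse. It was at 239, 249, 276, 22.9 and 371 normalized counts in ApcMin/+ and at 201, 244, 197 and 185 in ApcMin/+; p16cis/cis mice. ApcMin/+ replicate 4 was far below the other 8 mice, and 3 of the 4 ApcMin/+; p16cis/cis mice lay below the 4 remaining ApcMin/+ mice. With all 9 mice the log2 fold change was 0.27 (95% confidence interval -1.11 to 1.65, adjusted p = 0.804), and without ApcMin/+ replicate 4 it was -0.44 (adjusted p = 0.0724). The 14 T and NK cell markers summed to 787, 951, 842, 100.4 and 1476 normalized counts in ApcMin/+ and to 496, 597, 560 and 661 in ApcMin/+; p16cis/cis mice. Ccl5 and the marker sum were thus lowest and highest in the same mice, ApcMin/+ replicates 4 and 5, and without replicate 4 the marker sums did not overlap between the genotypes. In bulk tissue, fewer cells of a type and less RNA per cell cannot be told apart. None of the 12 tested T and NK cell markers passed with all 9 mice, and 0 had an unadjusted p under 0.05 (limma). Without ApcMin/+ replicate 4, 6 of the 12 passed as lower in ApcMin/+; p16cis/cis mice, Cd247 (adjusted p = 0.0410), Trac (0.0194), Cd8a (0.0463), Cd8b1 (0.0155), Gzma (0.00636) and Gzmb (0.0242). In that setting 1797 of all 14410 genes tested passed as lower, against 1261 with all 9 mice. Cd8b1, a chain of the T cell co-receptor CD8, was the third gene most like Ccl5 over the 9 mice (r = 0.99, rho = 0.92), and r was 0.92 without the 2 farthest mice. The part of these cells in the Ccl5 level was not tested.

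**Figure D4:**
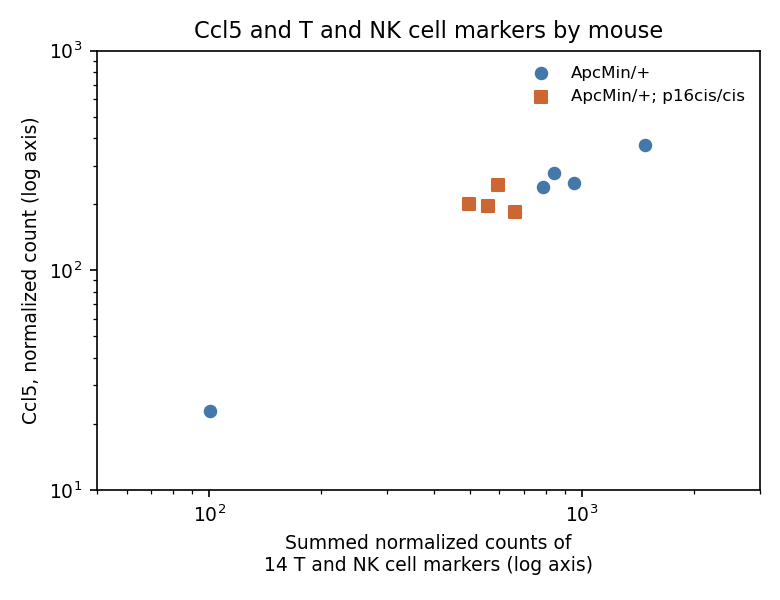
Ccl5 against the summed normalized counts of 14 T and NK cell markers, both on log axes, 1 point per mouse. ApcMin/+ replicate 4 lies alone at 22.9 and 100.4, the other ApcMin/+ mice (circles) have marker sums from 787 to 1476, and the ApcMin/+; p16cis/cis mice (squares) from 496 to 661.

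Ccl20 was the most variable member. It was at 89.3, 19.0, 27.3, 13.98 and 7.95 normalized counts in ApcMin/+ and at 448, 33.5, 7.51 and 122 in ApcMin/+; p16cis/cis mice. Both the highest and the lowest of the 9 values were from ApcMin/+; p16cis/cis mice, 59.7-fold apart. The log2 fold change was 1.45 (95% confidence interval -0.67 to 3.57, adjusted p = 0.330), which was 0.51 without ApcMin/+; p16cis/cis replicate 1, 2.41 without replicate 3 of that genotype and 0.22 in females alone. The count tests gave 2.28 with edgeR (adjusted p = 0.0996) and 2.29 with DESeq2 (0.130). The ratio of normalized counts between the genotypes was 5.36, on 146 and 459 reads. Of these reads, 80 were from ApcMin/+ replicate 1 and 355 from ApcMin/+; p16cis/cis replicate 1. The pooled ratio thus rests largely on 1 mouse and leaves out the spread between mice. ApcMin/+; p16cis/cis replicate 1 was the 1 male of its genotype. The SD of Ccl20 within genotypes was 1.86 on the log2 scale, at the 99.6th percentile of all genes tested. Tlr5, the receptor for flagellin, which induces Ccl20 in epithelial cells, was lower in ApcMin/+; p16cis/cis mice. It was at 87.0 to 145 normalized counts in ApcMin/+ mice, and the ApcMin/+; p16cis/cis mice, at 84.6, 55.8, 48.1 and 36.0, did not overlap with them. Tlr5 fell by 1.13 on the log2 scale (adjusted p = 0.0126).

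Cxcl1 was below the filter of the limma test. It was at 14.5, 2.85, 8.78, 2.54 and 2.27 normalized counts in ApcMin/+ and at 1.26, 1.60, 6.01 and 11.0 in ApcMin/+; p16cis/cis mice, that is 1 to 13 reads a library, and only 2 mice were over 10. The values of both genotypes covered nearly the same range. Summed over mice there were 29 and 13 reads, a ratio of 0.764 after normalization with a 95% counting interval of 0.365 to 1.52, which covers counting error only. In fits that kept genes of this level, its log2 fold change was -0.34 with DESeq2 (adjusted p = 0.844) and -0.31 with limma and no filter (adjusted p = 0.804).

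The list of inducers and signalling genes upstream of these chemokines held 23 genes. Of the 20 tested, 0 passed the test as higher and 2 as lower, Tlr4 and Tlr5, where 8.75% of all genes tested passed as lower. Tlr4, the receptor for lipopolysaccharide, was at 301 to 398 normalized counts in ApcMin/+ and 241 to 273 in ApcMin/+; p16cis/cis mice, and fell by 0.43 on the log2 scale (adjusted p = 0.0436). That call was lost in 13 of 21 alternatives. Without ApcMin/+ replicate 4, 2 genes of the list passed as higher (Myd88 and Rela) and 3 as lower (Tlr4, Tlr5 and Nfkb1). Of all 14410 genes tested, 1691 passed as higher and 1797 as lower in that setting. The adaptor Myd88 was at 650 to 770 and 820 to 916 normalized counts, without overlap, but did not pass with limma and all 9 mice (adjusted p = 0.0643). It passed as higher with DESeq2 (adjusted p = 0.0357) and with limma without ApcMin/+ replicate 4 (0.0344).

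Among the other chemokine ligands, 30 of 31 were listed, 5 were at 0 in all mice and 7 passed the filter of the limma test. Ccl27a, a ligand of Ccr10 like Ccl28, was the 1 of these 7 with an adjusted p under 0.05 over all 9 mice. It was at 24.5, 18.1, 21.5, 13.98 and 22.7 normalized counts in ApcMin/+ and at 70.7, 83.0, 57.1 and 54.8 in ApcMin/+; p16cis/cis mice. The genotypes did not overlap, and the gene was higher by 1.68 on the log2 scale (95% confidence interval 1.11 to 2.25, adjusted p = 0.0035). Ccl27a overlaps Il11ra1 on the opposite strand and has a near-identical copy, Ccl27b, listed at 0, so its reads cannot be assigned with certainty. Ccl9, the neighbor and close relative of Ccl6, was at 296 to 652 and 352 to 828 normalized counts (log2 fold change 0.10, adjusted p = 0.846). Cxcl11, which the GENCODE M21 annotation lists as a polymorphic pseudogene, ranged from 6.31 to 18.0 over the 9 mice (log2 fold change -0.04, adjusted p = 0.961). Ccl21a, a ligand of Ccr7, was at 15.6, 23.8, 26.3, 0 and 27.2 normalized counts in ApcMin/+ and at 3.79, 4.79, 3.01 and 0 in ApcMin/+; p16cis/cis mice. ApcMin/+ replicate 4 was the 1 mouse of its genotype that overlapped with the other. Ccl21a had a log2 fold change of -1.96 (adjusted p = 0.182) with all 9 mice, -2.87 (0.0051) without that mouse and -2.68 (0.0214) with DESeq2. It met the filter only through ApcMin/+ mice, so the limma p-values are given as a description. The stromal chemokine Cxcl12 had 0 to 12 reads a library and was below the filter. It was at 3.35 to 11.7 normalized counts in ApcMin/+ and at 0 to 3.19 in ApcMin/+; p16cis/cis mice, without overlap, and passed in the fits that kept it, with fitted log2 fold changes of -3.28 with DESeq2 (adjusted p = 0.0458) and -2.43 with limma and no filter (0.0222).

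The receptors of the members had few reads, far below those of Ccl6, Ccl28 and Cx3cl1. Of 24 chemokine receptors, 11 were tested, with 0 higher and 2 lower, where 8.75% of all genes tested passed as lower. Of the 11, 9 had lower fitted values in ApcMin/+; p16cis/cis mice, with a median log2 fold change of -0.90 beside -0.0041 over all genes tested. These medians are not like for like. Several receptors lay near the filter, which selects such genes partly by their higher genotype. With low genes kept, the median over all genes was -0.119 with DESeq2 and -0.125 with limma and no filter. Ccr1, the receptor of Ccl6 and Ccl5, was at 14.5, 13.3, 36.1, 28.0 and 17.0 normalized counts in ApcMin/+ and at 5.05, 1.60, 15.0 and 3.13 in ApcMin/+; p16cis/cis mice. Only ApcMin/+; p16cis/cis replicate 3 reached the ApcMin/+ range. Ccr1 fell by 1.90 on the log2 scale (95% confidence interval -3.09 to -0.71, adjusted p = 0.0336), and that call was lost in 11 of 20 alternatives, among them each of 6 in which 1 mouse was left out. Ackr2, a decoy receptor that removes inflammatory CC chemokines, was at 10.04, 10.5, 11.7, 15.3 and 5.68 normalized counts in ApcMin/+ and at 2.53, 0, 0 and 3.13 in ApcMin/+; p16cis/cis mice. There was no overlap, on 49 and 4 reads in all, a ratio of 0.139 with a 95% counting interval of 0.0365 to 0.380, and the fitted log2 fold change was -2.52 (adjusted p = 0.0182). No ApcMin/+; p16cis/cis mouse reached 10 normalized counts. Ackr2 thus met the filter only through the genotype in which it was high, and the limma p is given as a description. The Ackr2 call was lost in 4 of 20 alternatives.

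The other receptors of the members did not pass. Cxcr3, which binds Cxcl9 and Cxcl10, was at 2.54 to 26.3 normalized counts in ApcMin/+ and 6.31 to 11.2 in ApcMin/+; p16cis/cis mice (log2 fold change -0.69, adjusted p = 0.443). Cxcr6, the receptor of Cxcl16, was at 5.08 to 26.1 and 4.51 to 11.2 (log2 fold change -1.08, adjusted p = 0.161). Ccr9, the receptor of Ccl25, was at 6.36 to 19.0 and 1.60 to 17.2 (log2 fold change -0.76, adjusted p = 0.404). In each of these 3 the genotypes overlapped. ApcMin/+ replicate 4 held the lowest ApcMin/+ value of all 3, and without it 5 receptors passed, Ccr1 and Ackr2 and also Cxcr3 (-1.21, adjusted p = 0.0304), Cxcr5 (-1.90, 0.0185) and Cxcr6 (-1.45, 0.0245). Of all 14410 genes tested, 1797 passed as lower without that mouse. With DESeq2 and all 9 mice 4 receptors passed, Ccr1 (adjusted p = 0.0257), Ackr2 (0.0166), Cxcr5 (-1.85, 0.0297) and Ccr6 (0.0362). DESeq2 also kept receptors below the limma filter, and over its 29936 genes 1725 passed as lower and 1526 as higher. Cxcr6 and Ccr9 overlap other genes on the opposite strand.

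These further receptors of the members were below the filter of the limma test. Ccr6 had 46 reads in ApcMin/+ and 3 in ApcMin/+; p16cis/cis mice in all, Ccr10 27 and 23, Cx3cr1 25 and 4, Cxcr2 6 and 0, and Ccr3 0 and 1. The ratio of normalized counts was 0.111 for Ccr6 (95% counting interval 0.0221 to 0.346), the receptor of Ccl20, and 0.273 for Cx3cr1 (0.0690 to 0.790). For Ccr10 it was 1.45 (0.795 to 2.63). These intervals cover counting error only and not the spread between mice. In DESeq2, which kept them, Ccr6 passed (fitted log2 fold change -3.16, adjusted p = 0.0362), and Cx3cr1 (-1.82, 0.240) and Ccr10 (0.56, 0.603) did not. In limma with no filter Ccr6 was at -2.27 (adjusted p = 0.0622). Ccr10 overlaps Cntnap1 on the opposite strand (306 normalized counts on average). Cx3cr1 overlaps Gorasp1 on its own strand (868) and Wdr48 on the opposite strand (1117), among others. The few reads of Ccr10 and Cx3cr1 therefore cannot be assigned with certainty.

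**Figure D5:**
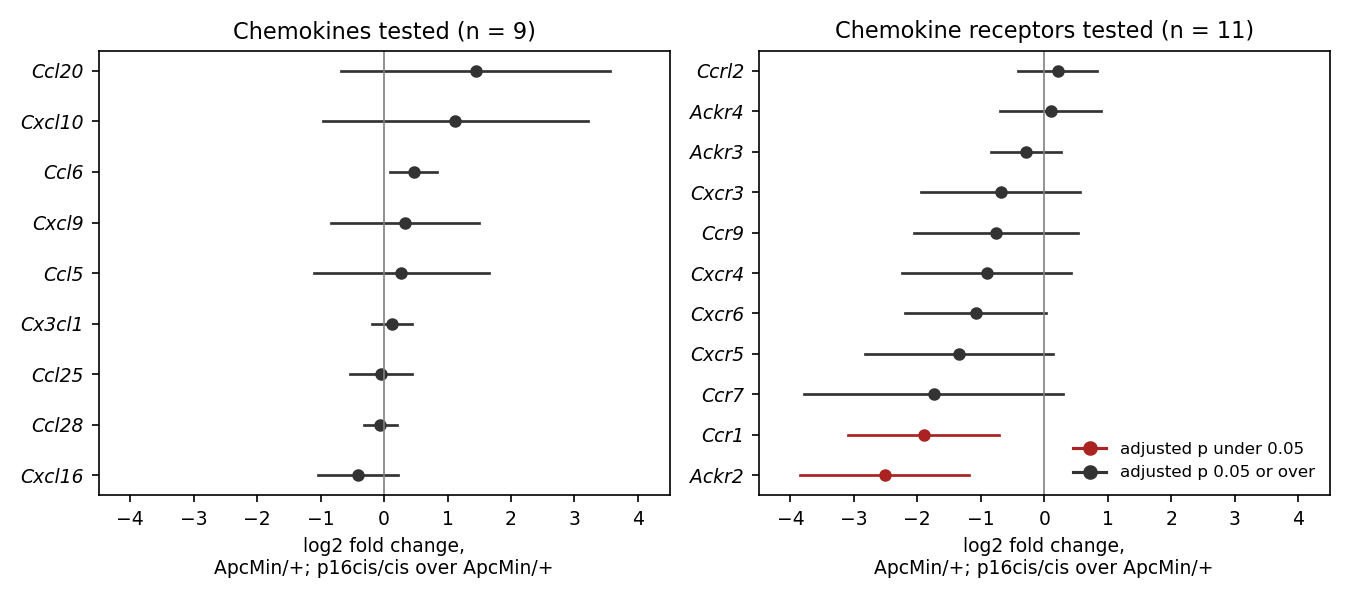
Log2 fold change of ApcMin/+; p16cis/cis over ApcMin/+ with 95% confidence intervals from limma for the 9 members tested (left) and the 11 chemokine receptors tested (right), n = 5 and 4 mice. No member passed, 9 of 11 receptors lie left of 0, and Ccr1 and Ackr2, in red, had an adjusted p under 0.05.

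Some markers of other cells also differed between the genotypes. Of the marker lists, Lyz2 of myeloid cells (fell by 1.56 on the log2 scale, adjusted p = 0.0074), Jchain of plasma cells (fell by 2.65, 0.0175) and Col3a1 of stroma (fell by 2.92, 0.0414) were lower in ApcMin/+; p16cis/cis mice. So were Gp2 of M cells (fell by 2.15, 0.0467), Slc26a3 of colonocytes (fell by 1.23, 0.0085) and Alpi and Sis of absorptive cells of the small intestine (fell by 1.60 and 3.04, 0.0208 and 0.0051). These were 1 of 10 myeloid, 1 of 7 B and plasma cell, 1 of 7 stromal, 1 of 6 M cell, 1 of 10 colonic epithelium and 2 of 4 small intestine markers tested. Over all genes tested, 8.75% passed as lower. None passed as higher with limma. The 5 other M cell and follicle markers had higher fitted values. All 6 summed to 3008 to 3561 normalized counts in ApcMin/+ and 3247 to 4134 in ApcMin/+; p16cis/cis mice. Of the 10 myeloid markers, 8 had lower and 2 higher fitted values. The latter were Cd68 (0.85, adjusted p = 0.0903 with limma and 0.0406 with DESeq2) and Cd14 (0.38, 0.129 with limma). Gp2 had 77 reads in ApcMin/+ and 10 in ApcMin/+; p16cis/cis mice in all, with 1 of the latter mice at 0. It met the filter only through ApcMin/+ mice, so its limma p is given as a description. The calls of Gp2, Col3a1 and Alpi were lost in 14 of 20, 10 of 20 and 8 of 21 alternatives. Without ApcMin/+ replicate 4, 3 of 10 myeloid, 4 of 7 B and plasma cell, 4 of 7 stromal, 0 of 6 M cell, 1 of 10 colonic epithelium and 2 of 4 small intestine markers passed as lower. In that setting 1797 of all 14410 genes tested did so. The 7 B and plasma cell markers summed to 4111 to 5203 normalized counts in ApcMin/+ and 3074 to 4173 in ApcMin/+; p16cis/cis mice, and without Sdc1, which epithelial cells also make, to 35.6 to 927 and 36.0 to 188. The 11 stromal and vessel markers summed to 437 to 970 and 299 to 474. The neutrophil markers summed to 463 to 1045 and 362 to 1657. Ly6g, the 1 of them tested, dominated that sum at 453 to 1017 and 359 to 1594 normalized counts (log2 fold change 0.28, adjusted p = 0.670 with limma). Without Ly6g the sums were 4.75 to 50.2 and 1.26 to 63.1, in some mice near or below the floor. The part of these cells in the receptor levels was not tested.

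The genes most like each member across the 9 mice, by the correlation of their deviations from the genotype means, were named by rank alone. They were Psmd1, Slc25a44 and Epsti1 for Cxcl9 (r of 0.97, 0.96 and 0.95), Alyref, Prkar1a and Ruvbl2 for Cxcl10 (0.99, 0.98 and 0.96) and Ndufaf2, Gch1 and Tmem81 for Cxcl16 (0.96, 0.95 and 0.95). For Ccl5, Ntn1 and Spn preceded Cd8b1 (0.997 and 0.99). They were Fgfr1op2, Bcl2 and Lgals12 for Ccl6 (0.98, 0.98 and 0.97) and Adam22, Kirrel3os and Twnk for Ccl28 (0.98, 0.96 and 0.96). For Ccl20 they were Ctcfl, Ddc and Ppp1r3d (0.96, 0.94 and 0.93), for Ccl25 Slc17a2, Dennd6b and Gnpat (0.96 for each of the 3), and for Cx3cl1 Rgs7, RP24-255F19.5 and Kcnj8 (0.97, 0.97 and 0.96). They rank highest among correlations with all other tested genes over only 9 mice and are given as a description. Epsti1 is an interferon-induced gene, and none of the 3 genes named for any member was another member.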

How the data were processed

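Colonic mucosa of 9 mice was analyzed by RNA-seq, with 1 library per mouse. Per the methods, the authors aligned BGISEQ-500 reads with BOWTIE2, estimated gene levels with RSEM and compared groups with DESeq2. Genome build, tool versions and strand setting are not given in the sources used here. The deposited signal values are normalized counts, in which the count of each gene is scaled by the size factor of its library. Division by the value of 1 read returned whole reads for 100% of values (tolerance 0.01), so RSEM estimates had been rounded. The table lists 54146 genes, and 52480 of their versioned identifiers matched the GENCODE M21 annotation (GRCm38).

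The main test was limma 3.58.1 (R 4.3.3, trended variances) on log2(normalized count + 1). It had genotype as its single factor, covered the 14410 genes that reached 10 or more normalized counts in 4 or more mice, and used Benjamini-Hochberg adjustment. Fold changes on this scale understate those of low genes. As alternatives, the recovered reads were tested with DESeq2 1.42.0 and edgeR 4.0.16 (quasi-likelihood). Exact permutation tests of single values used all 126 splits of the mice, or 40 arrangements within sex. On simulated counts for this comparison (14410 genes, 200 changed), 63% of genes changed by 1 and 90.5% of genes changed by 2 on the log2 scale were recovered. Of the genes that passed, 9.35% and 4.74% were unchanged ones. These shares are over genes of all levels, and they do not give the recovery of members with few reads or a wide spread between mice.

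Members and lists were chosen with earlier results of these data known. Named genes are the 10 members, their receptors, listed genes with an adjusted p under 0.05 and the 3 genes most like each tested member, and a few listed genes were added after their values were seen. Some listed genes are not reported here. Replicate numbers name different mice, and the deviations of mice with the same number from their genotype means correlated at -0.18, 0.07, 0.05 and 0.14, and the numbers were therefore not treated as pairs. No deposited column was left unmapped.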

Additional observations from a re-analysis of the deposited data

Results flagged for a closer look

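A total of 3 values stood apart from the rest of their genotype, each farther from the nearest mouse than chance gives in about 1 of 20 groups. With 62 groups examined, 3.1 such values are expected by chance, and 3 were found. Ccl20 in ApcMin/+ replicate 1 was at 89.3 normalized counts (80 reads), against 7.95 to 27.3 in the other ApcMin/+ mice. Lyz2 in ApcMin/+; p16cis/cis replicate 3 was at 40.6 (27 reads), against 19.1 to 22.7. Ccr3 in ApcMin/+; p16cis/cis replicate 1 was at 1.26, which is 1 read, against 0 in the others.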

How the results depend on the processing

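Over the 9 members tested and their alternatives, 186 values were computed, of which 168 kept the direction and side of the threshold, 17 turned direction without passing and 1 passed (Ccl6 without ApcMin/+ replicate 1, log2 fold change 0.56, adjusted p = 0.0427). The count of members with an adjusted p under 0.05 was thus 1 in that setting and 0 in the others. Ccl5 turned to -0.18 with edgeR (TMM), -0.17 with DESeq2, -0.17 with edgeR (RLE), -0.025 with sex as a covariate, -0.52 in females only and -0.31 with the mitochondrial share as a covariate. With each mouse left out it ranged from -0.44 to 0.55, Cxcl9 from -0.12 to 0.73, Ccl25 from -0.25 to 0.17 and Ccl28 from -0.12 to 0.0023. Ccl25 was 0.016 with edgeR (TMM), 0.020 with DESeq2, 0.024 with edgeR (RLE) and 0.0081 with the replicate block, and Ccl6 was -0.053 with the mitochondrial share as a covariate. The cause was not tested. The replicate block left 0 members, 1 other ligand and 2 receptors past the threshold, as without it, and turned the direction of Ccl25 alone among the members. With 1 member at an unadjusted exact permutation p under 0.05, permutation within sex left 0.

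For the other ligands, 1 passed in the test reported, 3 with DESeq2 (Ccl27a, Ccl21a and Cxcl12), 2 with no filter (Ccl27a and Cxcl12), and 0 in females only, with the mitochondrial share as a covariate or with Bonferroni, and 1 to 2 with a mouse left out. For the receptors the 2 became 4 with DESeq2 (Ccr1, Ackr2, Cxcr5 and Ccr6), 1 with no filter, 0 with a minimum of 10 in every mouse, 1 with sex as a covariate, 0 in females only, with the mitochondrial share or with Bonferroni, and 0 to 5 with a mouse left out (5 without ApcMin/+ replicate 4, 0 without ApcMin/+ replicate 3). Over all 14410 genes tested, 519 passed as higher and 379 as lower in females only, 5 and 22 with Bonferroni, and 0 and 0 with the mitochondrial share. The counts of 0 in these settings are thus not particular to ligands or receptors. DESeq2 passed 1526 as higher and 1725 as lower of 29936 genes, and limma with no filter 901 and 1019 of 29946. Depth limits Cxcl1 and most receptors, which had few reads in any library. The within-mouse ratio of Ccl6 to Ccl28, its settings and the marker sums without Cd14, Sdc1 or Ly6g were chosen after seeing the data.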
